A study of Mus musculus with 24 samples.

Results

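The 10 genes described here belong to the Notch and ephrin-B signalling systems that endothelial cells (ECs) use to become arterial or venous, and were chosen by name: the Notch ligands Dll4, Jag1 and Jag2, the Notch receptors Notch1 and Notch4, the Notch target genes Hey1, Hey2 and Hes1, and the ligand and receptor pair Efnb2 and Ephb4. All 10 members were found, each on 1 line, among the 25361 genes of a table of TPM, a transcript abundance scaled to transcript length and to the library total, with 24 RNA-Seq libraries. The libraries came from mouse livers at embryonic day (E) 12.5 and held either the CD146+ fraction, which is enriched for liver sinusoidal endothelial cells (LSECs), or the remaining non-endothelial (non-EC) liver cells, with 3 libraries for each of 4 genotypes and 2 fractions. The comparisons asked how loss of either or both of the chromatin remodelers CHD4 and BRG1 (encoded by Smarca4) in ECs changed transcripts in the 2 cell fractions.

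Embryos came from Brg1fl/fl;Chd4fl/fl mice crossed with Brg1fl/+;Chd4fl/+ mice that carried the VE-Cadherin-Cre transgene. Chd4-ECko embryos had 2 floxed Chd4 alleles and Cre, and by this cross they also carried 1 floxed Brg1 allele. Brg1-ECko embryos had 2 floxed Brg1 alleles, 1 floxed Chd4 allele and Cre. Brg1/Chd4-ECdko (double mutant) embryos had 2 floxed alleles of both genes and Cre, and controls were Cre-negative littermates with at least 1 floxed allele of each gene. The mice were of mixed background and the sexes were pooled, each library came from 1 embryo, and the transgene is active in ECs and in some blood cells. Transcription inhibitors were present while every liver was digested.

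Notch is a receptor on one cell that is cut when a Delta-like or Jagged ligand on a neighbouring cell binds it, and the freed intracellular part enters the nucleus and joins the DNA-binding protein RBPJ to switch on genes of the Hes and Hey families. In developing vessels DLL4 and NOTCH1 promote arterial identity, and the ligand ephrin-B2 (Efnb2) then marks arteries while its receptor EphB4 marks veins. JAG1 on portal mesenchyme is known for directing nearby hepatoblasts to form bile ducts later in liver development.

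Promoters of 4 members are shown, for the members whose level is described in most detail or which hold the motif of the pathway's own transcription factor. RefSeq promoter windows were matched for 8 of the 10 members, Hey1 and Hes1 being without an entry, and each window was found once in the GRCm39 genome. Only bases that lie before the GENCODE gene start are printed, 5′ to 3′ on the strand of the gene. For Notch1, Jag1 and Jag2 the windows lay wholly inside the annotated gene and are not shown. Capitals mark the RBPJ core motif TGGGAA and the GC box GGGCGG, each on either strand (TTCCCA and CCGCCC on the opposite one). The windows are Dll4 at chr2:119156015-119156169 (plus strand), Hey2 at chr10:30718829-30719029 (minus strand), Efnb2 at chr8:8711250-8711492 (minus strand) and Ephb4 at chr5:137348121-137348273 (plus strand).
Dll4: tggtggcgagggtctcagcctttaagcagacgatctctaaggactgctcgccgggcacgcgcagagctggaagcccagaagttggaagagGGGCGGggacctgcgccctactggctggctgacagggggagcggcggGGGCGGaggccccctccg
Hey2: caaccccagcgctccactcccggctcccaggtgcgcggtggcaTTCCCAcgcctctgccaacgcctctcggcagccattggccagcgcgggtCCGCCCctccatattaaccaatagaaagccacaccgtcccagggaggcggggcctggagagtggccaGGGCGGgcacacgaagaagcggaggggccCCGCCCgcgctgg
Efnb2: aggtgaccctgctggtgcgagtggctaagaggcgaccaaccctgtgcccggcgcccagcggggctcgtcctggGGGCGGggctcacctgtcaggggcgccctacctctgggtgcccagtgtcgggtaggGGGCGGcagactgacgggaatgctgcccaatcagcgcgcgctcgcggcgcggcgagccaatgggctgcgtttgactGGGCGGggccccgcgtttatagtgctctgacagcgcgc
Ephb4: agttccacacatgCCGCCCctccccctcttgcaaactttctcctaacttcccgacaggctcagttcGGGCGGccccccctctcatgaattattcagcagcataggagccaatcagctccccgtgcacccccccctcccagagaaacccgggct

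The motifs were counted over the 250 bases before the RefSeq start, which for some members lie partly or wholly inside the GENCODE gene. The RBPJ core TGGGAA was present in 1 of the 8 members, Hey2, and in 21.6% of 32851 promoter windows of the same length. The longer form GTGGGAA, which contains that core, was also found only in Hey2 among the 8, against 5.42% of all windows. The GC box was present in 6 of 8 members (not in Jag1 or Notch4) and in 32.7% of all windows. Neither the E-box CACGTG (6.02% of all windows) nor the ETS core CCGGAAG (6.91%) was in any of the 8 windows. A match gives the letters in the window only.

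Both fractions carried the markers of their labels. Cdh5, which encodes the EC junction protein VE-cadherin, lay between 194 and 368 TPM in LSEC libraries and between 3.33 and 13.4 TPM in non-EC libraries, whereas the hepatoblast gene Afp lay between 7808 and 16602 TPM in non-EC libraries and still between 1267 and 12314 TPM in LSEC libraries. The 10 mesenchymal and stellate markers summed to between 1301 and 2169 TPM in the LSEC fraction and to 28.8 to 117.1 TPM in the non-EC fraction, so the CD146+ fraction also carried transcripts of other cells. No marker of the 7 lists used was at 0 in every library of a group. Libraries held 12746 to 13219 genes at 1 TPM or more in the LSEC fraction and 11450 to 11973 in the non-EC fraction, mitochondrial genes took 13.9 to 31.5% and 2.33 to 7.69% of the TPM, and read depth is unknown from TPM. The targeted genes did not separate the groups: in LSECs Chd4 was 246 to 285 TPM in controls, 168 to 252 TPM in Chd4-ECko and 242 to 256 TPM in double mutant libraries, and Smarca4 was 134 to 161 TPM in controls, 111 to 157 TPM in Brg1-ECko and 117 to 151 TPM in double mutant libraries. A gene-level TPM also counts exons outside a deletion and cells without Cre, so these values test the labels only in part, and groups are named as labelled.

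In control LSECs the members spanned from 2.54 to 115.8 TPM on average, a scale that is corrected for transcript length. Ephb4 was highest at 115.8 ± 12.6 TPM (SD, n = 3) and Efnb2 followed at 60.5 ± 7.01 TPM. Hes1 stood at 36.0 ± 2.39, Dll4 at 26.5 ± 4.53, Notch1 at 19.2 ± 3.11 and Notch4 at 12.3 ± 2.25 TPM. The lowest were Jag1 at 10.7 ± 1.10, Hey2 at 7.41 ± 1.09, Hey1 at 5.55 ± 1.25 and Jag2 at 2.54 ± 0.474 TPM. The venous receptor therefore had the highest transcript level of the set in these libraries, and a Notch ligand the lowest. Of neighbours in this order only Notch4 and Jag1, and Hey2 and Hey1, had overlapping library values.

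Control LSEC and non-EC libraries were compared with limma on log2(TPM + 1) across 13775 genes, at a Benjamini-Hochberg adjusted p under 0.05, a rule that called 67.1% of all genes and 31.3% as higher in LSECs. Dll4, Notch4, Hey1 and Hey2 were under 1 TPM in all 12 non-EC libraries of the study and Jag1 reached it in only 1, so these 5 met the filter on low values through the LSEC libraries and had to come out higher there. Their levels are given as a description. In control non-EC libraries Dll4 lay between 0.0356 and 0.214 TPM and Notch4 between 0.0476 and 0.254 TPM, too near 0 for a fold to be given. Of the 5 members measured in both fractions, Efnb2 (log2 difference 5.13), Ephb4 (2.71), Notch1 (1.99) and Hes1 (1.55) were higher in LSECs. On the TPM scale the ratio of control means was 6.88 for Ephb4, 4.65 for Notch1 and 3.09 for Hes1. For Efnb2 it was 79.9, a ratio that rests on low values. Efnb2 was at 0.501 to 1.04 TPM in control non-EC libraries and at or under 1.44 TPM in every non-EC library. Jag2 did not pass the test, with a log2 difference of 0.39 (SE 0.21, 95% interval -0.04 to 0.81, adjusted p = 0.103). Over the 4 genotypes together, where 82.6% of all genes were called, Jag2 was called higher in LSECs with a log2 difference of 0.39 that became -0.25 after quantile normalization.

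**Figure D1:**
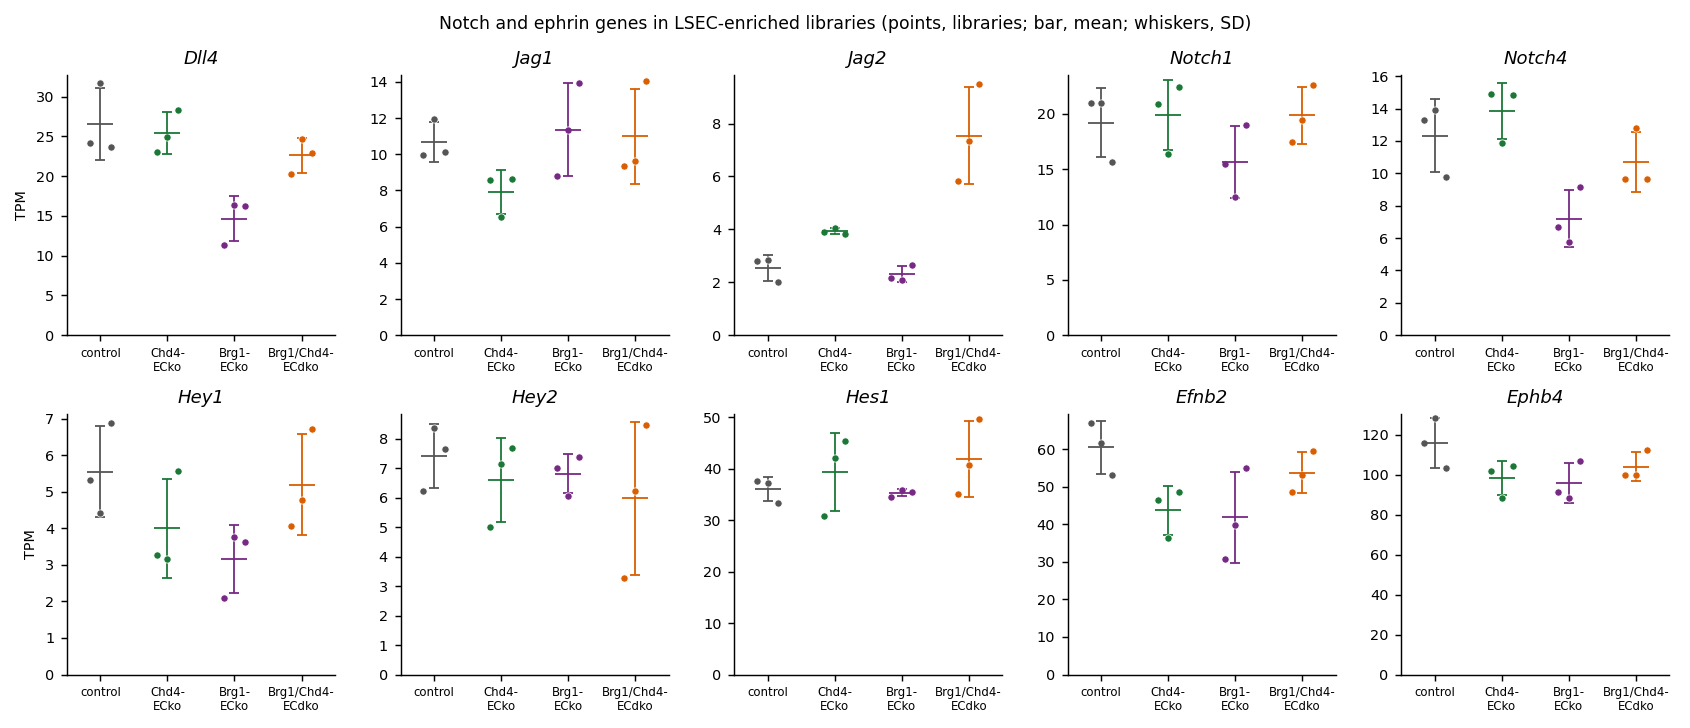
TPM of the 10 members in LSEC libraries of the 4 genotypes, with points for libraries, bars for means and whiskers for SD (n = 3), each gene on its own axis from 0. Jag2 stands above all other groups in the Brg1/Chd4-ECdko libraries (5.84 to 9.48 TPM), and Dll4 and Notch4 lie below the control range in the Brg1-ECko libraries.

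In LSECs, each mutant was set against control with limma and the same threshold over 13444 genes. Of the 10 members, 1 passed in Brg1/Chd4-ECdko LSECs (0.87% of all genes did), 0 passed in Chd4-ECko LSECs (0.707%) and 0 passed in Brg1-ECko LSECs (0.0223%). At an unadjusted p under 0.05 the counts were 1, 2 and 5 members, against 12.1%, 6.49% and 9.68% of all genes in the same order. The member that rose was the ligand Jag2. Median log2 changes of the 10 members were -0.12, -0.10 and -0.28, beside 0.16, 0.01 and 0.08 over all genes tested, and the first of these, a shift of the whole Brg1/Chd4-ECdko comparison, applies to every value from it. All 3 comparisons share the same control libraries, and in these bulk samples fewer cells of a type and less RNA per cell cannot be told apart.

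Jag2 (chr12:112871421-112893437, minus strand, GRCm39) encodes a Jagged ligand. It was at 2.79, 2.84 and 1.996 TPM in the control LSEC libraries, 2.15, 2.10 and 2.65 TPM in Brg1-ECko, 3.92, 4.06 and 3.82 TPM in Chd4-ECko and 5.84, 7.33 and 9.48 TPM in double mutant libraries. The Brg1/Chd4-ECdko libraries lay above every other LSEC library, the Chd4-ECko libraries lay between them and the rest, and control and Brg1-ECko libraries overlapped. Of all genes, 20.8% lay wholly above the controls in Brg1/Chd4-ECdko LSECs. Mean TPM in Brg1/Chd4-ECdko LSECs was 2.97-fold that of control LSECs, and the log2 change was 1.26 (SE 0.19, 95% interval 0.85 to 1.66, adjusted p = 0.00651, limma). With any 1 of the 12 LSEC libraries left out the adjusted p stayed between 0.00312 and 0.0431. With the mean log2 level of the endothelial markers as covariate the change was no smaller (1.35, adjusted p = 0.00426), and so it was with that of the hepatoblast markers (1.28, adjusted p = 0.00294, limma). Other markers moved in the same libraries: 6 sinusoidal markers summed to 831 to 1004 TPM, wholly below the controls (1013 to 1330 TPM), with 5 of 6 log2 changes negative, and 10 macrophage and myeloid markers to 711 to 1104 TPM against 594 to 758 TPM, with 10 of 10 positive and a median of 0.70. None of these 16 was called (3 and 6 at an unadjusted p under 0.05, limma), and their part in the Jag2 change was not tested.

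Against Brg1-ECko LSECs, Jag2 rose by 1.35 in Brg1/Chd4-ECdko LSECs (SE 0.19, adjusted p = 0.00911 in limma, where 0.0967% of genes were called). This call was lost without replicate 2 (adjusted p = 0.069) or replicate 3 (adjusted p = 0.0758) of the Brg1/Chd4-ECdko libraries, with the endothelial marker covariate (adjusted p = 0.0769) and with these 2 groups fitted alone (adjusted p = 0.0776). Against Chd4-ECko LSECs the log2 difference was 0.77 (SE 0.19, 95% interval 0.37 to 1.17) with an adjusted p of 0.331 in limma, and 0 members were called there (0.0372% of genes; 1 member and 10.4% of genes at an unadjusted p under 0.05). The Chd4-ECko value itself, 0.49 against control (SE 0.19, 95% interval 0.08 to 0.89), had an adjusted p of 0.500. Jag2 was the only member whose Chd4-ECko libraries lay wholly above the controls, as 8.7% of all genes did.

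**Figure D2:**
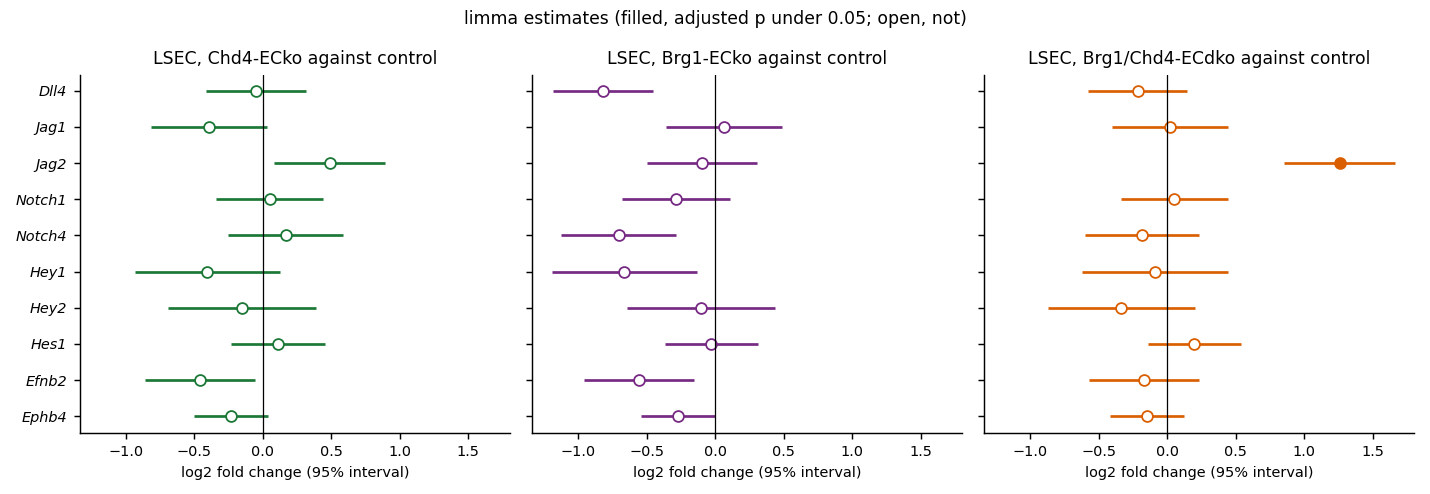
limma log2 fold changes against control with 95% intervals for the 10 members in LSECs, 1 panel for each mutant genotype; filled points passed an adjusted p of 0.05. The single filled point is Jag2 at 1.26 in Brg1/Chd4-ECdko LSECs, and Dll4, Notch4, Hey1, Efnb2 and Ephb4 have intervals below 0 in Brg1-ECko LSECs.

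Dll4 (chr2:119156170-119166443, plus strand), the ligand most used by arterial and tip ECs, was at 24.2, 31.8 and 23.6 TPM in control, 11.4, 16.4 and 16.3 TPM in Brg1-ECko, 23.1, 24.9 and 28.3 TPM in Chd4-ECko and 20.2, 24.7 and 22.9 TPM in double mutant LSEC libraries. All 3 Brg1-ECko libraries lay below all 9 others, which overlapped each other. The log2 difference of Brg1-ECko from control was -0.82 (SE 0.17, 95% interval -1.18 to -0.46, adjusted p = 0.169, limma), which did not pass the test. Brg1/Chd4-ECdko LSECs differed from Brg1-ECko LSECs by 0.60 (95% interval 0.24 to 0.97, adjusted p = 0.318, limma).

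Jag1 (chr2:136923373-136958693, minus strand), the Jagged ligand of the portal region, was at 9.94, 11.9 and 10.1 TPM in control, 8.81, 11.3 and 13.9 TPM in Brg1-ECko, 8.60, 6.51 and 8.65 TPM in Chd4-ECko and 9.34, 9.62 and 14.03 TPM in double mutant libraries. The Chd4-ECko libraries lay below the controls without overlap, and the other 2 mutants spread across the control range. The 95% interval of the Chd4-ECko difference, -0.82 to 0.03 on the log2 scale, includes 0.

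As a share of the summed TPM of the 5 canonical ligand genes (Dll1, Dll3, Dll4, Jag1 and Jag2), a ratio that does not depend on scaling, Jag2 made up 5.36 ± 0.703% in control and 15.6 ± 1.43% in Brg1/Chd4-ECdko LSECs (SD, n = 3), with 9.26 ± 0.834% in Chd4-ECko and 6.71 ± 0.867% in Brg1-ECko. Dll4 was the most abundant ligand transcript in every group, with 55.9 ± 3.25%, 47.7 ± 5.31%, 59.6 ± 3.83% and 42.3 ± 3.99% in the same order. Jag1 held 22.6 ± 1.04% in control and 32.6 ± 1.23% in Brg1-ECko LSECs, ranges of 21.7 to 23.7% and 31.4 to 33.9% that did not overlap. No test was run on these shares. In control non-EC libraries the order was different, with Jag2 at 49.2%, Dll1 at 31.2%, Jag1 at 16.2% and Dll4 at 2.68%.

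**Figure D3:**
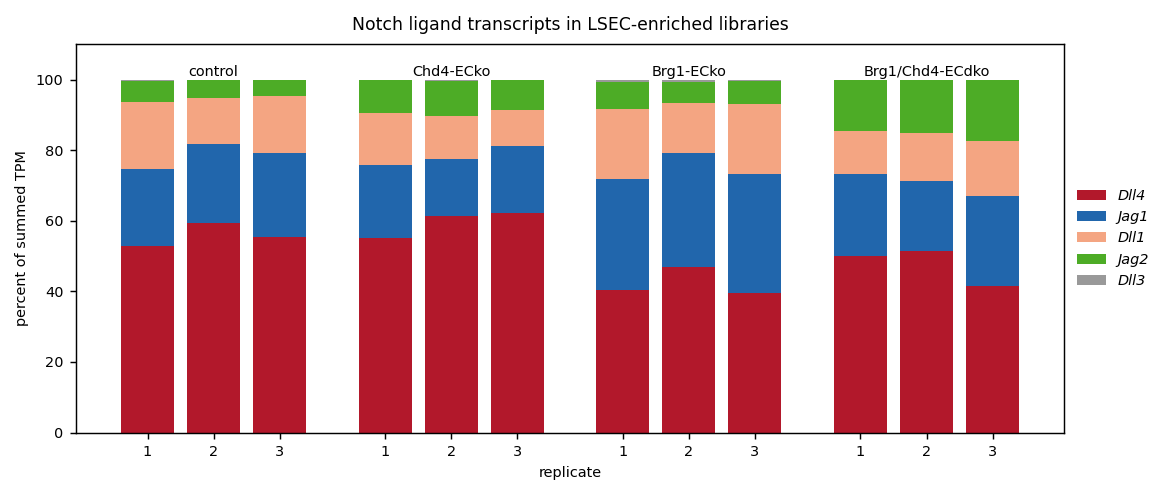
Share of the summed TPM of the 5 Notch ligand genes in each LSEC library, in percent, stacked by gene, with libraries grouped by genotype. Dll4 takes the largest share in all 12 libraries, and the Jag2 share is 14.4 to 17.2% in Brg1/Chd4-ECdko against 4.68 to 6.08% in control libraries.

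The receptor Notch4 (chr17:34783220-34807477, plus strand), which is largely restricted to endothelium, was at 13.3, 13.9 and 9.74 TPM in control, 6.71, 5.74 and 9.17 TPM in Brg1-ECko, 14.9, 11.8 and 14.8 TPM in Chd4-ECko and 9.62, 12.8 and 9.64 TPM in double mutant LSEC libraries. Brg1-ECko libraries were the lowest, without overlap with the other 3 groups. Their log2 difference from control was -0.70 (SE 0.19, 95% interval -1.12 to -0.29, adjusted p = 0.282, limma). Among the 4 Notch receptor genes Notch4 held 23.1 ± 2.25% of the summed TPM in control and 14.8 ± 1.47% in Brg1-ECko LSECs.

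Notch1 (chr2:26347915-26406675, minus strand), the main arterial Notch receptor, was at 21.0, 21.0 and 15.6 TPM in control, 15.5, 12.5 and 19.0 TPM in Brg1-ECko, 20.9, 16.4 and 22.4 TPM in Chd4-ECko and 17.5, 19.5 and 22.6 TPM in double mutant LSEC libraries. All 4 groups overlapped. The 95% intervals of its 3 log2 differences from control ran from -0.34 to 0.44 in both Chd4-ECko and Brg1/Chd4-ECdko and from -0.68 to 0.11 in Brg1-ECko, each including 0.

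Of the target genes, Hey1 (chr3:8726956-8732385, minus strand), a repressor that Notch switches on in arterial ECs, was at 5.34, 4.43 and 6.89 TPM in control, 2.09, 3.77 and 3.64 TPM in Brg1-ECko, 3.26, 3.17 and 5.57 TPM in Chd4-ECko and 4.05, 4.78 and 6.73 TPM in double mutant LSEC libraries. Only the Brg1-ECko libraries lay wholly below the controls, with a log2 difference of -0.66 (SE 0.25, adjusted p = 0.426, limma). Hey2 (chr10:30708350-30718828, minus strand), its relative and the one member with an RBPJ core in the promoter printed above, ranged from 6.22 to 8.36 TPM in control, 6.08 to 7.37 TPM in Brg1-ECko, 5.001 to 7.70 TPM in Chd4-ECko and 3.28 to 8.46 TPM in double mutant libraries, all overlapping. Hes1 (chr16:29882134-29886643, plus strand), a Notch target that other pathways also regulate, ranged from 33.3 to 37.6, 34.5 to 35.9, 30.8 to 45.3 and 35.1 to 49.7 TPM in the same order. The 2 Hey genes and Hes1 therefore gave no called change in LSECs, and the Hes1 interval for Brg1-ECko against control was -0.37 to 0.31.

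Efnb2 (chr8:8667226-8711249, minus strand), encoding the arterial ligand ephrin-B2, was at 66.9, 61.7 and 53.0 TPM in control, 30.9, 39.9 and 54.9 TPM in Brg1-ECko, 46.4, 36.4 and 48.5 TPM in Chd4-ECko and 48.6, 53.2 and 59.4 TPM in double mutant LSEC libraries. Chd4-ECko libraries lay below the controls without overlap, whereas 1 Brg1-ECko library reached the control range. The log2 differences were -0.46 in Chd4-ECko (SE 0.19, 95% interval -0.86 to -0.06, adjusted p = 0.571, limma) and -0.55 in Brg1-ECko LSECs (SE 0.19, 95% interval -0.95 to -0.15, adjusted p = 0.409, limma). Efnb2 and Jag1 were the 2 members lying wholly below the controls in Chd4-ECko LSECs, as 3.65% of all genes did.

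Ephb4 (chr5:137348274-137376931, plus strand), encoding the venous receptor for ephrin-B2, was at 116, 128 and 103.3 TPM in control, 91.6, 88.4 and 107 TPM in Brg1-ECko, 102, 88.7 and 104 TPM in Chd4-ECko and 99.7, 100.1 and 113 TPM in double mutant LSEC libraries. The mutant groups centred lower than control but each overlapped it, and the log2 difference of Brg1-ECko was -0.27 (SE 0.13, adjusted p = 0.514, limma).

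The ratio of Efnb2 to Ephb4 TPM within a library was 0.578, 0.480 and 0.513 in control, 0.337, 0.451 and 0.513 in Brg1-ECko, 0.454, 0.411 and 0.465 in Chd4-ECko and 0.487, 0.531 and 0.528 in Brg1/Chd4-ECdko LSECs. The Chd4-ECko ratios all lay below the control ratios. Taken as log2((Efnb2 + 1)/(Ephb4 + 1)), the difference from control was -0.28 in Brg1-ECko (p = 0.2), -0.23 in Chd4-ECko (p = 0.1) and -0.02 in Brg1/Chd4-ECdko LSECs (p = 1), by two-sided exact permutation tests of 3 against 3 libraries, whose smallest possible p is 0.1. Adjusted over the 3 comparisons these p-values were 0.3, 0.3 and 1 (exact permutation). With 1 library left out the Brg1-ECko difference ran from -0.41 to -0.11, the latter without Brg1-ECko replicate 1, and the Chd4-ECko difference from -0.29 to -0.16. The Brg1/Chd4-ECdko difference changed sign without replicate 1 of the control (0.05) or of the mutant (0.02).

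In Brg1-ECko LSECs, 9 of 10 members had negative log2 changes, all but Jag1, and 5 of the 10 (Dll4, Notch4, Hey1, Efnb2 and Ephb4) were lower at an unadjusted p under 0.05, as were 2.55% of all genes. Dll4, Notch4 and Hey1 did not overlap the controls, as was the case for 3.71% of all genes on the lower side. In the same libraries 10 endothelial markers summed to 712 to 1187 TPM, against 1135 to 1457 TPM in control LSECs, with 10 of 10 log2 changes negative, a median of -0.47, 0 of 10 called and 7 of 10 at an unadjusted p under 0.05 (limma). The 6 sinusoidal markers summed to 588 to 865 TPM against 1013 to 1330 TPM, and 10 hepatoblast markers to 28318, 6598 and 7066 TPM against 3550 to 7185 TPM, so that replicate 1 stood apart and the other 2 Brg1-ECko libraries were within the control range. Without replicate 1, 2 of the 5 members kept an unadjusted p under 0.05, Dll4 (-0.66) and Notch4 (-0.67), and the changes of Hey1, Efnb2 and Ephb4 were -0.46, -0.36 and -0.24 (limma). With the endothelial marker covariate the log2 changes were -0.43 for Dll4, -0.42 for Notch4, -0.32 for Hey1, -0.07 for Efnb2 and -0.08 for Ephb4 (adjusted p = 0.9997 for each, limma), each nearer to 0 than without it. These markers were themselves lower in Brg1-ECko LSECs, so this fit cannot fully tell genotype and marker level apart. Dll4 and Notch4 also differed between Brg1/Chd4-ECdko and Brg1-ECko LSECs, by 0.60 and 0.52 without passing the test, where 4 members (the other 2 being Hey1 and Jag2) and 6.1% of all genes had an unadjusted p under 0.05. The endothelial markers in Brg1/Chd4-ECdko libraries summed to 1079 to 1297 TPM, above the Brg1-ECko range in part.

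Outside the endothelial fraction, 5 of the 10 members (Notch1, Jag2, Hes1, Efnb2 and Ephb4) reached 1 TPM in at least 3 of the 12 non-EC libraries and were tested among 12223 genes. Ephb4 and Hes1 were higher in the non-EC libraries of both single mutants. The other 5 were low: Dll4 lay between 0.0356 and 0.227 TPM, Notch4 between 0.0476 and 0.254 TPM, Hey2 between 0.0611 and 0.576 TPM and Jag1 between 0.309 and 1.43 TPM. Hey1 reached at most 0.506 TPM and was listed at 0 in 1 library.

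Ephb4 was at 17.7, 14.5 and 18.3 TPM in control, 49.2, 26.8 and 36.4 TPM in Brg1-ECko, 40.3, 28.9 and 38.7 TPM in Chd4-ECko and 31.7, 28.2 and 31.9 TPM in double mutant non-EC libraries. All 9 mutant libraries were above all 3 controls, and the mutant groups overlapped. Mean TPM was 2.23-fold, 2.14-fold and 1.82-fold that of control in the same order. Ephb4 rose in Brg1-ECko non-EC cells (log2 change 1.07, SE 0.20, adjusted p = 0.00652) and in Chd4-ECko non-EC cells (1.04, SE 0.20, adjusted p = 0.0126), and its value in Brg1/Chd4-ECdko was 0.83 (SE 0.20, adjusted p = 0.0827), all with limma.

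Hes1 was at 12.3, 12.1 and 10.6 TPM in control, 25.3, 19.7 and 22.0 TPM in Brg1-ECko, 23.5, 19.0 and 14.5 TPM in Chd4-ECko and 22.7, 18.7 and 20.4 TPM in double mutant non-EC libraries. Again no mutant library overlapped the controls. Of the 5 tested members 3, 2 and 3 lay wholly above the controls for Chd4-ECko, for Brg1-ECko and for the double mutant, as did 15.8%, 21.9% and 16% of all genes. Hes1 rose by 0.88 in Brg1-ECko (SE 0.16, adjusted p = 0.00666) and by 0.64 in Chd4-ECko (SE 0.16, adjusted p = 0.0372), and its value in Brg1/Chd4-ECdko non-EC cells, 0.77, did not pass the test (adjusted p = 0.0589, limma). The Chd4-ECko call was lost in 8 of 12 fits with 1 library left out, with no filter on low values, without mitochondrial genes and with the 2 groups fitted alone. Hence 2 of 5 tested members were called in Brg1-ECko (11.7% of all genes), 2 in Chd4-ECko (9.48%) and 0 for the double mutant (0.581%; 3 members and 11.7% of genes at an unadjusted p under 0.05). With control and double mutant libraries fitted alone, Ephb4 and Hes1 were both called in the double mutant (adjusted p = 0.047 for each, limma).

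Jag2 in non-EC libraries was at 2.18, 1.28 and 1.70 TPM in control, 1.52, 2.97 and 1.81 TPM in Brg1-ECko, 2.26, 3.87 and 2.62 TPM in Chd4-ECko and 3.32, 5.40 and 3.81 TPM in double mutant libraries. As in LSECs, the Brg1/Chd4-ECdko group had the highest mean and Chd4-ECko the next, both without overlap with control. The log2 differences from control were 0.52 in Chd4-ECko (SE 0.23, adjusted p = 0.141) and 0.92 in Brg1/Chd4-ECdko (SE 0.23, adjusted p = 0.0965), neither of which passed the test in limma. Over all alternative settings these differences ran from 0.35 to 1.58 and from 0.76 to 1.57, and neither was called in any. With 1 library left out they reached at most 0.64 and 1.04. Notch1, between 2.80 and 5.87 TPM over all non-EC libraries, and Efnb2, between 0.501 and 1.44 TPM, overlapped across all groups.

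**Figure D4:**
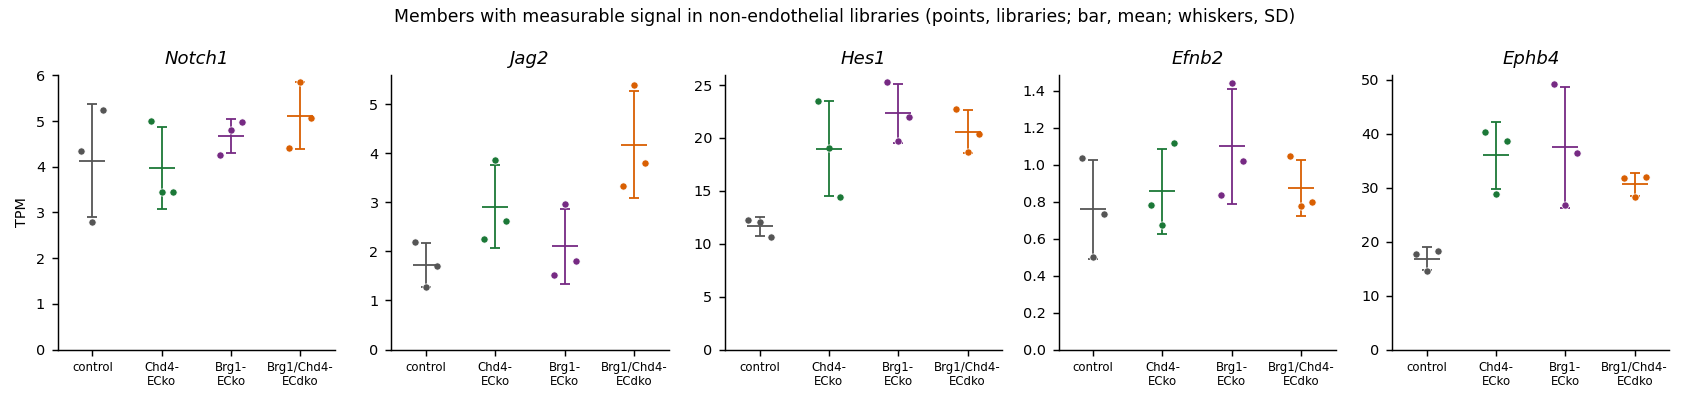
TPM of the 5 members tested in non-EC libraries, by genotype, with points for libraries, bars for means and whiskers for SD (n = 3). For Ephb4 and Hes1 every mutant library lies above the control libraries, which reach 18.3 and 12.3 TPM.

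Hepatoblast markers moved with these values. The 10 markers summed to 17375 to 19444 TPM in control, 26189 to 37937 TPM in Brg1-ECko, 26702 to 35789 TPM in Chd4-ECko and 22376 to 29829 TPM in double mutant non-EC libraries, so no mutant library overlapped the controls, and 10, 9 and 1 of the 10 were called higher in the same order. With the mean log2 level of these markers as a covariate, an alternative added after the data were seen, no member was called in any of the 3 comparisons. Of all 12223 genes 0 were then called in either single mutant and 3 in the double mutant, so the loss was not particular to the members. As the marker sums of mutants and controls did not overlap, genotype and this covariate cannot be told apart in these fits. The log2 changes for Ephb4 were then 0.01 in Brg1-ECko, 0.15 in Chd4-ECko and 0.29 in the double mutant, and those for Hes1 were 0.15, 0.03 and 0.40.

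The effect of genotype on Ephb4 differed between the fractions. Its LSEC change minus its non-EC change was -1.28 for Chd4-ECko (SE 0.24, 95% interval -1.77 to -0.78, adjusted p = 0.0146), the 1 member called (1.02% of all genes), and -1.35 for Brg1-ECko (SE 0.24, 95% interval -1.84 to -0.86, adjusted p = 0.0092), again the 1 member called (1.04%), both interaction terms in limma over 24 libraries. The Chd4-ECko call was lost without replicate 2 of the control LSECs (-1.20, adjusted p = 0.056). For Brg1/Chd4-ECdko 0 members were called (0.0581%; 2 members and 7.57% of genes at an unadjusted p under 0.05), and Ephb4 had -0.98 (adjusted p = 0.167, limma). When the LSEC and non-EC libraries of the same genotype and number were kept as a block, 3 members were called for Brg1-ECko: Ephb4, Hes1 (-0.91, adjusted p = 0.031, against 0.0566 without the block, limma) and Dll4. Dll4 was at or under 0.227 TPM in every non-EC library, so its value repeats the LSEC change and shows no difference between the fractions. The block also raised the number of all genes called from 143 to 456 of 13775. For Jag2 the Brg1/Chd4-ECdko effect in LSECs and in non-EC cells differed by 0.34 (95% interval -0.27 to 0.94, adjusted p = 0.785, limma).

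Among other genes of the same systems in LSECs, only genes of the arterial list passed the test. Of 16 arterial genes 15 were tested, and 2 fell in Chd4-ECko LSECs (median -0.13), 2 fell in Brg1/Chd4-ECdko LSECs (median -0.02) and 0 were called in Brg1-ECko LSECs (median -0.30, 6 at an unadjusted p under 0.05, limma). Over all genes 0.707%, 0.87% and 0.0223% were called in the same order, and 9.68% had an unadjusted p under 0.05 in Brg1-ECko LSECs. Gja4, which encodes the arterial gap junction protein connexin 37, was at 18.5, 25.0 and 20.2 TPM in control and 6.90, 7.77 and 9.22 TPM in Chd4-ECko libraries, a log2 change of -1.31 (SE 0.20, adjusted p = 0.0056, limma) that was called in all 12 fits with 1 library left out. Gja5, which encodes connexin 40, was at 11.05, 25.9 and 17.4 TPM in control, 3.62, 5.71 and 7.45 TPM in Chd4-ECko and 3.65, 3.29 and 5.06 TPM in double mutant libraries. It fell by 1.502 in Chd4-ECko (SE 0.30, adjusted p = 0.0368, lost in 7 of 12 such fits, with no filter on low values and after quantile normalization) and by 1.87 in Brg1/Chd4-ECdko LSECs (SE 0.30, adjusted p = 0.00917, kept in all 12; limma). Both connexins lay below the controls without overlap in all 3 mutants, also where they did not pass the test: Gja4 was at 10.95 to 16.9 TPM in Brg1-ECko and 11.3 to 16.8 TPM in Brg1/Chd4-ECdko, and Gja5 at 5.56 to 10.3 TPM in Brg1-ECko LSECs. In Chd4-ECko LSECs the 10 endothelial markers summed to 1190 to 1380 TPM, within the control range, while 10 macrophage and myeloid markers summed to 782 to 1402 TPM against 594 to 758 TPM in controls (median log2 change 1.02, 10 of 10 positive, 3 called), and the part of the latter in these values was not tested.

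Mecom, a transcription factor of arterial ECs and blood stem cells, was at 14.4, 17.4 and 12.5 TPM in control, 5.85, 5.23 and 8.39 TPM in Brg1-ECko, 10.04, 7.94 and 8.77 TPM in Chd4-ECko and 7.42, 7.11 and 8.22 TPM in double mutant libraries. It fell in Brg1/Chd4-ECdko LSECs by 0.87 (SE 0.18, adjusted p = 0.0409, lost in 8 of 12 fits with 1 library left out, with no filter on low values, without mitochondrial genes and with the endothelial covariate) and had -1.08 in Brg1-ECko (adjusted p = 0.0823, limma). All 9 mutant libraries lay below the 3 controls.

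**Figure D5:**
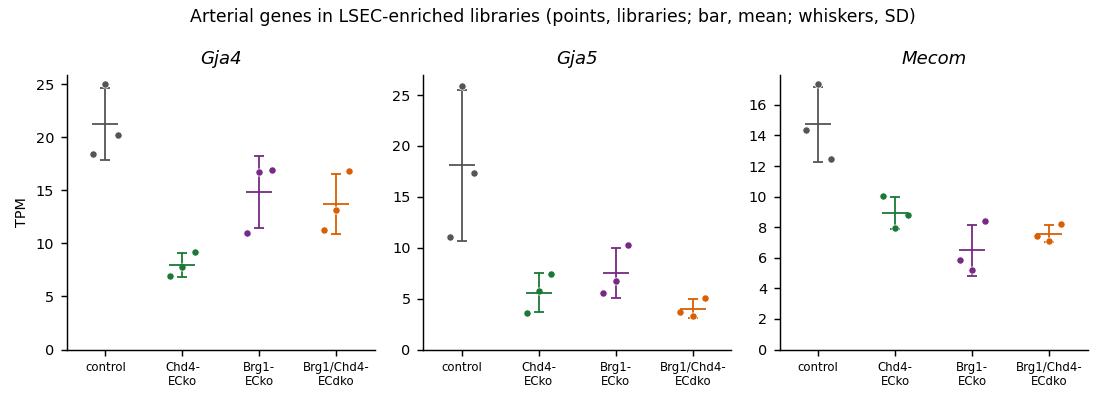
TPM of Gja4, Gja5 and Mecom in LSEC libraries by genotype, with points for libraries, bars for means and whiskers for SD (n = 3). Chd4-ECko libraries are lowest for Gja4 (6.90 to 9.22 TPM) and Brg1/Chd4-ECdko libraries have the lowest mean for Gja5.

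In the other 5 lists no gene was called in LSECs in any of the 3 mutants against control or in Brg1/Chd4-ECdko against either single mutant. These were the other Notch ligands and receptors (3 of 4 tested), 23 genes of Notch processing and transcription, 8 of 9 other Notch target genes, 16 other ephrins and Eph receptors and 8 of 9 venous genes. Of these 58 tested genes, 10 had an unadjusted p under 0.05 in Brg1-ECko against control, 2 in Chd4-ECko and 8 in the double mutant, which differed from Chd4-ECko at 7 and from Brg1-ECko at 5 by the same rule (limma). The shares of all genes were 9.68%, 6.49%, 12.1%, 10.4% and 6.1% in that order. The smallest p-values belonged to Notch3 (0.51 in Brg1/Chd4-ECdko, adjusted p = 0.392) and Dll1 (-0.45 in Chd4-ECko), to the gamma-secretase subunit gene Psen2 (-0.62 in Brg1/Chd4-ECdko, adjusted p = 0.0933) and the sheddase gene Adam17 (0.37, adjusted p = 0.203), and to Myc (0.61 in Chd4-ECko, adjusted p = 0.227) and Dtx4 (0.44 in Brg1-ECko), all from limma. They further belonged to Efna1 (-0.75 in Brg1-ECko, adjusted p = 0.308) and Efnb1 (-0.47 in Chd4-ECko, adjusted p = 0.403), and to the venous genes Ackr1 (-0.9999 in Brg1-ECko, adjusted p = 0.250) and Flt4. For Flt4 the smallest was in Brg1/Chd4-ECdko against Brg1-ECko LSECs (0.57, adjusted p = 0.419, limma), and its Brg1-ECko change against control was -0.57. The 8 venous genes had a median of -0.45 in Brg1-ECko LSECs with 7 of 8 negative, beside the lower endothelial markers described above.

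Across the 12 LSEC libraries the genes most like Dll4 by Pearson's r of log2(TPM + 1) were Cldn5 (0.980), Oit3 (0.969) and Fam174b (0.964), the first an EC tight junction gene and an endothelial marker, the second a sinusoidal marker. For Efnb2 they were Pcdhgb5 (0.949), Ets1 (0.941) and Dennd2a (0.932), and for Ephb4 Shroom2 (0.927), Adarb1 (0.893) and Arhgap23 (0.890). Among the members themselves the closest pairs were Efnb2 with Ephb4 (0.869), Dll4 with Notch4 (0.830) and Notch1 with Notch4 (0.790). With group means removed these values were 0.773, 0.403 and 0.786, and the closest pair was then Notch1 with Ephb4 (0.926). These coefficients describe libraries that share genotype groups and differ in their summed endothelial markers, and they carry no p-value.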

How the data were processed

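RNA was taken from CD146+ cells, bound to magnetic microbeads, and from the remaining cells of E12.5 livers, and poly-A libraries were sequenced as paired ends. All libraries carried batch number 1 in the labels. The authors mapped reads in CLC Genomics Workbench (version not given in the sources used here) to GRCm39 (mm39 in the submitters' processing notes) and deposited gene-level TPM. No counts or depths were used, so no counting interval can be given. Strand use in counting is not given in the sources used here, and 8 members overlap a gene on the opposite strand (all but Hey2 and Jag2), so reads of such pairs may not be separated.

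Genes that reached 1 TPM in 3 or more libraries of a model were tested with limma 3.58.1 (trend) in R 4.3.3 on log2(TPM + 1), a scale that understates the change of low genes. One model held the 12 LSEC libraries, one the 12 non-EC libraries and one all 24. A gene was called at a Benjamini-Hochberg adjusted p under 0.05 over all genes tested. P-values measure the spread between 3 embryos a group. The scripts were tested on simulated data.

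LSEC and non-EC libraries of the same genotype and number deviated together (12 of 12 pairs over r = 0.1, mean 0.303, lowest 0.141). The labels name no shared embryo. The main fits, including that of all 24 libraries, took the libraries as independent. This pairing entered only as an alternative, the block of the 2 fractions. No 2 libraries of the 276 pairs were identical.

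All 10 members are named. From other lists the genes called in an LSEC contrast are named, or else the 2 with the smallest p; Cdh5 and Afp check the fractions, and the 3 genes most like Dll4, Efnb2 and Ephb4 are given. Members and lists were chosen with earlier results of these data known. Alternatives were another pseudocount, other filters, quantile normalization, no mitochondrial genes, marker covariates (the hepatoblast one chosen after seeing the data), blocks, 2 groups alone and each library left out. Promoter windows came from RefSeq (GRCm38.p6) and gene spans from GENCODE.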

Additional observations from a re-analysis of the deposited data

Results flagged for a closer look

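Ephb4 is given here because its response to genotype differed between the fractions by an interaction term in limma. The Chd4-ECko effect in LSECs minus that in non-EC cells was -1.28 on the log2 scale (adjusted p = 0.0146), and the Brg1-ECko effect was -1.35 (adjusted p = 0.0092). In both cases the non-EC libraries of the mutant were all above their controls while the LSEC libraries overlapped theirs. Summed hepatoblast markers were also higher in the mutant non-EC libraries than in all controls, and their part in the difference between fractions was not tested.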

How the results depend on the processing

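Of 1778 alternative values for 69 gene and comparison pairs (23 different genes), 1615 kept sign and call, 136 lost a call, 23 gained one and 4, of 3 genes, changed sign: Ccnd1 (-0.0865) and Epha2 (-0.0124) in Chd4-ECko and Ccnd1 (-0.22) in Brg1-ECko non-EC cells with the hepatoblast covariate, and Jag2 between fractions over the 4 genotypes (-0.25) with quantile normalization. The count of members called in Brg1/Chd4-ECdko against control LSECs became 0 when a mean of 5 TPM was required, because Jag2 is below it. Against Brg1-ECko it became 0 under that filter, with the endothelial covariate and with the 2 groups alone, and was 0 to 1 with 1 library left out. In non-EC cells the Chd4-ECko count was 1 without mitochondrial genes or with the 2 groups alone, 0 with the hepatoblast covariate and 1 to 2 with 1 library left out, and the Brg1-ECko count was 0 with that covariate. The Brg1/Chd4-ECdko count was 2 with the 2 groups alone and 0 to 1 with 1 library left out. The interaction count for Brg1-ECko was 2 with the filter at 5 TPM, 3 with quantile normalization, 3 without mitochondrial genes, 3 with the 2 fractions of a number as a block and 1 to 4 with 1 library left out, and that for Chd4-ECko was 0 to 1. The Efnb2 to Ephb4 log2 ratio of Brg1/Chd4-ECdko LSECs ranged from -0.0788 to 0.0531 with 1 library left out. The cause of these changes was not tested.

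Same-numbered libraries of different genotypes did not all deviate together (mean r 0.171 in LSECs, 13 of 18 pairs over 0.1, and 0.127 in non-EC cells, 10 of 18), and 11 of 12 LSEC but 6 of 12 non-EC libraries were closest to their own number. In LSECs this is a hint of pairing from the data, not from the design, and since not every pair was over 0.1 the numbers were not used to pair genotypes. A replicate block gave 2 members called in Brg1/Chd4-ECdko non-EC cells, Ephb4 (adjusted p = 0.0176) and Hes1 (adjusted p = 0.0221, limma), with 301 genes called in all against 71 without it, and 2 for the Brg1-ECko interaction, and left the other counts of called members as they were. TPM carry no depth, so levels of the 5 members near 0 in non-EC cells cannot be given an error from counting.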

Other observations

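Other ephrin system genes were called in non-EC cells. Of 10 tested ephrins and Eph receptors outside the members, 4 rose in Brg1-ECko (median log2 change 0.55; 11.7% of all genes were called) and 3 rose in Chd4-ECko non-EC cells (median 0.35; 9.48%), while 0 were called in Brg1/Chd4-ECdko non-EC cells (median 0.39, 5 at an unadjusted p under 0.05), with limma. Efnb1, which encodes a ligand that also binds EphB receptors, rose by 0.82 in Chd4-ECko and by 0.97 in Brg1-ECko, and Epha2, a receptor of epithelial cells, by 0.66 and 0.86. Efna1 rose by 0.88 in Chd4-ECko, and Efna4 (0.59) and Ephb6 (0.69) rose in Brg1-ECko. With each of 12 libraries left out in turn, the Chd4-ECko calls held in 11 fits for Efnb1, 7 for Efna1 and 5 for Epha2, and the Brg1-ECko calls in all 12 for Efnb1 and Epha2, 6 for Efna4 and 4 for Ephb6. Summed hepatoblast markers were higher in the same libraries, and with their mean log2 level as a covariate 0 genes of any kind were called in either single mutant.

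Of 5 other Notch target genes tested in non-EC cells 1 was called in Chd4-ECko and 2 in Brg1-ECko, of 22 genes of Notch processing and transcription 1 and 2, and of 8 arterial genes 0 and 1, beside the 9.48% and 11.7% of all genes. Among these, the cell cycle gene Ccnd1 rose by 0.81 in Chd4-ECko and by 0.85 in Brg1-ECko, and the gamma-secretase subunit gene Aph1a by 0.32 and 0.42, while Myc fell by 0.30 in Brg1-ECko. The endothelial receptor gene Acvrl1 of the arterial list rose by 0.80 in Brg1-ECko non-EC cells. In those libraries the 10 endothelial markers summed to 78.4 to 116.2 TPM, against 59.6 to 84.1 TPM in control non-EC libraries. Their part in the Acvrl1 change was not tested. With 1 library left out the Aph1a call held in 1 of 12 fits for Chd4-ECko and in 12 for Brg1-ECko, that of Myc in 2, those of Ccnd1 in 9 for each mutant and that of Acvrl1 in 10. The hepatoblast covariate, which cannot be told apart from genotype in these libraries, ended each of these calls as well. The Ccnd1 changes were then -0.0865 in Chd4-ECko and -0.22 in Brg1-ECko.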
